A study of Mus musculus with 13 samples.

Results

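ESR1 (estrogen receptor alpha) binding was compared between the 6 ChIP-Seq libraries from cells given estradiol (E2) and the 6 from cells not given it, whether or not the antagonist fulvestrant was present. The groups follow the treatment labels, and the libraries make up 12 of the 13 samples of the series; the input sample was not analysed here. The comparison was then repeated on 10 libraries, 5 against 5, without E2 replicate 1 and fulvestrant replicate 2, which stood apart from the rest in depth and in their share of peaks in repeats.

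The cells were skeletal muscle fibroblasts in primary culture. They came from the lower abdominal muscle of mice of the Aromhum genotype, which carry the human aromatase gene and so make E2 in tissues that normally make little of it. ChIP-Seq sequences the DNA fragments that an antibody, here one to ESR1, pulls down from fixed chromatin. The group given E2 held 3 libraries with 10 nM E2 and 3 with 10 nM E2 plus 100 nM fulvestrant. The group not given E2 held 3 with vehicle (ethanol and DMSO) and 3 with 100 nM fulvestrant alone. All cultures carried the Aromhum genotype, were kept in serum-free medium, received fulvestrant or DMSO for 3 hours, and were harvested 1 hour after E2 or ethanol. Over all 12 libraries fulvestrant was therefore balanced between the groups, with 3 of 6 libraries in each. It was not balanced in the repeat on 10 libraries, which left out fulvestrant replicate 2 and kept all 3 libraries with E2 plus fulvestrant. The cultures were primary cultures passaged once rather than a cloned line, and no group came from animals without the transgene. The labels did not say whether replicates came from separate animals or cultures, so the p-values measure the spread between these libraries, which may be technical. Peak positions do not measure expression, and the labelled cell type was not checked against its markers here.

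E2 binds ESR1, a nuclear receptor that then settles on DNA, classically as a dimer on the estrogen response element (ERE), an inverted repeat of the arms GGTCA and TGACC with 3 bases between them. The receptor also reaches DNA through other factors, among them AP-1 (the Fos and Jun proteins), and many of its sites lie in enhancers far from genes. Fulvestrant competes with E2 for the receptor, holds it in an inactive shape and speeds its breakdown. In fibroblasts, E2 and its receptor are known for acting on growth and on the making of extracellular matrix.

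The deposited files were 12 peak lists, 1 per library, and held 686823 peaks in all. Peaks that overlapped by at least 1 bp were merged into 228284 regions, of which 49642 had a peak in at least 3 of the 12 libraries and were tested. Each list was ranked by the −log10 of its q-value, and a region was given the percentile of its strongest peak in that list, where 100 is the top of the list and 0 means no peak. A difference is the mean percentile with E2 minus the mean without it, in percentile points. Sites are called by the protein-coding gene with the nearest transcription start site (TSS), which names a position and says nothing of whether the gene is controlled from there.

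Lists were longer with E2, and this touches every percentile and every count of presence below. Leaving aside the 2 libraries that stood apart, the lists held 40939 to 68971 peaks with E2 and 34293 to 51239 without it. E2 replicate 1 had 104571 peaks at a relative depth of 39.1% of the median library (solved from the fold and p-value of its weaker peaks), with 59.4% of its peaks in repeats, and fulvestrant replicate 2 had 80754 peaks at 75.8%, with 27.9% in repeats. In the other 10 libraries the relative depth was 92.0% to 106% and the share in repeats 5.57% to 7.79%. The median difference over all tested regions was 6.19 percentile points in 12 libraries and 9.23 in 10, so a site is above the general shift only where its difference is well beyond these values. A site already near the top of the lists without E2 has little room for such a difference.

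Sequence at the sites that the comparison turned on is shown first, so that the element can be read beside the values. Each line gives 61 bases of the + strand of GRCm38 (mm10) centred on the best-matching ERE within 100 bp of the summit, with the element in capitals. The sites are the first 8 named higher sites that held an ERE with at most 1 mismatch.
Cmklr1 site, chr5:113633164-113633224: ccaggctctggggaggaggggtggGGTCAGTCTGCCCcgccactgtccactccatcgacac
Hrh1 site, chr6:114432928-114432988: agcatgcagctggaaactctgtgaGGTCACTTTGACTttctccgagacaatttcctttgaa
Ppp3ca site, chr3:136656862-136656922: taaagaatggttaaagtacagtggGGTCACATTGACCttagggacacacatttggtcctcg
Gfra2 site, chr14:71104217-71104277: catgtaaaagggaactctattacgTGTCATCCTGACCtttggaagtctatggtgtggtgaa
Slco2a1 site, chr9:102992745-102992805: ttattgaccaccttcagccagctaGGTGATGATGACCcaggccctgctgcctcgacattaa
Klf4 site, chr4:55790379-55790439: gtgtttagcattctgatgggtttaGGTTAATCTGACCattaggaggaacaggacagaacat
Greb1 site, chr12:16760507-16760567: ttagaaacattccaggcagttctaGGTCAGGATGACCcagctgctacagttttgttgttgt
Ncam1 site, chr9:49827823-49827883: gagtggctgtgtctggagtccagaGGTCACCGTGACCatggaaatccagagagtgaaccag
The elements near Ppp3ca, Greb1 and Ncam1 had no mismatch in either arm. Counting from 1 at the left end of the element, the full element's base first, the single mismatch was A11C near Cmklr1, C13T near Hrh1, G1T near Gfra2, C4G near Slco2a1 and C4T near Klf4. The element lay 2 bp from the summit near Ppp3ca, 11 bp near Ncam1, 12 bp near Gfra2, 23 bp near Greb1 and 93 bp near Hrh1.

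The 61 bases around the summits of the first 3 named lower sites follow, all in lower case because none held an ERE within 100 bp of the summit. The sites above were picked for holding an ERE and these were not, so the 2 sets cannot be compared on it. Of the 12 higher sites of smallest p in 12 libraries 2 held an ERE, as did 2 of the next 6 in 10 libraries.
Il6 site, chr5:29893617-29893677: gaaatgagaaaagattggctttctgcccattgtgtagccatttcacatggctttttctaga
Mdm4 site, chr1:133023807-133023867: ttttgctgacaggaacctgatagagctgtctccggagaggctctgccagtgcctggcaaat
Ccdc3 site, chr2:5318934-5318994: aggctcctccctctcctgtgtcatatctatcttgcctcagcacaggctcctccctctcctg
The best match to the ERE at each of these 3 sites had 4 mismatches. All bases within 100 bp of the Mdm4 summit were repeat-masked in the reference genome.

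Over all 12 libraries, no region passed an adjusted p of 0.05 in either direction (limma, 0% of 49642 tested; smallest adjusted p = 0.441). At an unadjusted p below 0.05, limma placed 4853 regions higher and 198 lower with E2. The exact permutation test with Benjamini-Hochberg adjustment also called 0 regions (smallest adjusted p = 0.621). Without E2 replicate 1 limma called 855 regions higher. In 80 regions (0.161%) all 6 libraries with E2 lay above all 6 without it, and in 19 (0.0383%) all 6 lay below.

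The 12 higher sites of smallest p were mostly far from genes: 10 of the 12 lay over 10 kb from the TSS and 1 was a promoter site. In 11 of them the groups did not overlap, and the exact permutation p was 0.00216, the smallest that 6 against 6 libraries allow. These sites were picked for small p, so the values that follow describe them and carry no further test. Each had an adjusted p of 0.441 in the 12-library limma fit.

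The largest difference among them was at chr13:52820215-52820979, between genes and 109 kb from Auh, which encodes a mitochondrial enzyme of leucine breakdown. Its percentile was 58.4 at the lowest, 90.9 at the median and 98.8 at the highest with E2, and no library without E2 had a peak there. The difference was 85.1 ± 16.5 (SE). An exonic site at chr7:46997650-46998361, 10.4 kb from Spty2d1, a histone chaperone gene, ran from 65.6 through a median of 96.8 to 98.8 with E2. Without E2 it ran from 0 through 4.24 to 20.2, with a peak in 3 of the 6 libraries. Both sites were thus high in the lists of most libraries with E2 and absent or weak without it. The lowest values with E2, 58.4 and 65.6, were those of E2 replicate 1.

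Several of the 12 were bound in every library and moved within the upper part of the lists. The intronic site at chr5:113632574-113634945, 17.2 kb from Cmklr1, the receptor for the chemoattractant chemerin, had percentiles of 98.9 to 99.7 with a median of 99.2 with E2. Without E2 the values were 61.9 to 89.5 with a median of 81.8. This site, which carried the A11C element above, was the 1 region that passed in 12 libraries when ranks were put on a log2 scale cut at the shortest list (adjusted p = 0.00265, limma). The promoter site 1.34 kb from Il17ra, the receptor subunit for interleukin-17A, ran from 90.2 through 96.6 to 98.7 with E2. Without E2 it ran from 64.2 through 70.3 to 88.4, and the highest of these was fulvestrant replicate 2. Near Col6a2, which encodes a chain of collagen VI, a site 41.2 kb from the TSS ran from 94.5 through 98.4 to 99.1 with E2. It ran from 58.3 through 77.0 to 93.4 without E2, again with fulvestrant replicate 2 at the top.

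At others some libraries without E2 had no peak, while all 6 with E2 had one. The intronic site 25.5 kb from Hrh1, a histamine receptor gene, lay at 83.6 to 96.0 with a median of 88.4 with E2, and had a peak in 2 of the 6 libraries without it, the higher at 60.7. The site 23.9 kb from Pank3, an enzyme of coenzyme A synthesis, lay at 84.5 to 98.4 with a median of 92.9 with E2 against 0 to 60.6 with a median of 14.0 without it, where 4 of the 6 libraries had a peak. At 3.73 kb from Zp1 the values were 86.0 to 98.3 with a median of 94.1 with E2, and 0 in 4 of the 6 libraries without it. The remaining 4, near Nsmce1, D7Ertd443e, Fam92b and Dglucy, had medians of 94.98 to 98.9 with E2 and of 36.9 to 82.5 without it, and are shown with the others in the plot of the named sites by library. Of these, D7Ertd443e was the site where the groups overlapped, because fulvestrant replicate 2 (87.9) lay above E2 plus fulvestrant replicate 1 (85.7). At the Pank3 site 53.2% of the bases around the summit were repeat-masked.

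**Figure D1:**
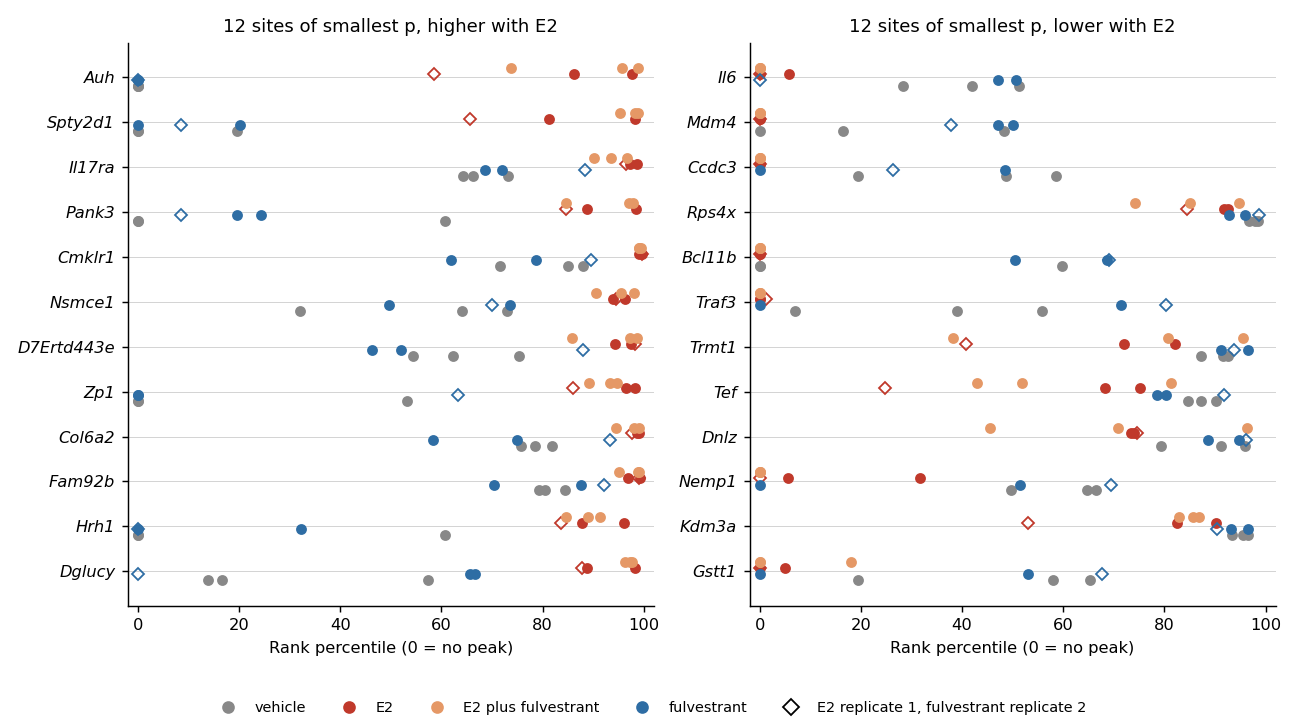
Rank percentile of the 12 sites of smallest p in each direction of the 12-library comparison, 1 row per site named by the nearest protein-coding gene and 1 point per library; colours give the treatment and open diamonds the 2 libraries left out of the second comparison. On the left the E2 points sit to the right of the others in 11 of 12 rows; on the right the E2 points sit mostly at 0 or to the left, with 1 row (Kdm3a) in which the groups do not overlap.

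None of the 12 lower sites of smallest p held an ERE, against 2 of the 12 higher sites and 3.13% of all tested regions. The lower sites differed in position: 9 of the 12 were promoter sites, and the groups overlapped in all but 1. That 1 was the promoter site 276 bp from Kdm3a, a histone H3 lysine 9 demethylase gene, at chr6:71633073-71634202. Its percentile was 53.0 at the lowest, 84.3 at the median and 90.2 at the highest with E2, against 90.4, 94.5 and 96.5 without E2. The difference was -14.1 ± 5.05 (SE) in 12 libraries.

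At weaker lower sites the peak was mostly missing with E2. No library with E2 had a peak at the promoter site 1501 bp from Mdm4, a p53 inhibitor gene, while 5 of the 6 without E2 did, at a median of 42.5 over the 6. The same counts, 0 and 5, held at the intronic site 181 kb from Ccdc3, with a median of 37.5 without E2. The site 119 kb from Il6, in the promoter of a noncoding gene, had a peak in 1 library with E2, at 5.88, and in 5 without, at a median of 44.5. None of these 3 passed the adjusted threshold in either fit. Another of the 10 tested regions nearest to Ccdc3 was called higher with E2 in 10 libraries (difference 12.1, limma adjusted p = 0.0491). At Rps4x, a ribosomal protein gene, every library had a peak, and the percentiles were 74.2 to 94.8 with E2 and 92.8 to 98.6 without it.

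Counting presence alone, 9 regions (0.0181%) had a peak in all 6 libraries with E2 and in none of the 6 without it, and 0 regions (0%) showed the opposite. Over all tested regions, 50.9% had a peak more often with E2 and 18.7% less often. Without E2 replicate 1 the 9 became 283, without E2 plus fulvestrant replicate 1 they became 39, without fulvestrant replicate 2 they became 30, and without vehicle replicate 1 or fulvestrant replicates 1 or 3 they became 14 to 17. Fisher's exact test gave these 9 a p of 0.00216, and no region passed after Benjamini-Hochberg adjustment (smallest adjusted p = 1). At an unadjusted p below 0.05 it placed 364 regions more often with E2 and 5 more often without. Besides the Auh site, the 9 lay nearest to Lyplal1, Nrsn1, Gm3045, Runx1, Lypd6b, Ccn5, Il4ra and Efnb2, all of them named because the count was small. The site 16.8 kb from Ccn5, a matricellular gene also called Wisp2, held an ERE with 1 mismatch and ran from 29.9 through a median of 71.3 to 89.8 with E2. The site 6.18 kb from Gm3045 held a full ERE and ran from 7.24 through 74.4 to 85.1. The site 114 kb from Runx1, a transcription factor gene, ran from 12.9 through 41.6 to 65.7. Near Efnb2 81.6% of the bases around the summit were repeat-masked.

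Without E2 replicate 1 and fulvestrant replicate 2, limma called 775 regions higher with E2 (1.56% of those tested) and 1 lower (0.00201%), that 1 being the Kdm3a site (-9.42 ± 2.16, SE; 93.2 to 96.5 without E2 and 82.5 to 90.2 with it; adjusted p = 0.0469). At an unadjusted p below 0.05 it placed 8933 regions higher and 259 lower. All 5 libraries with E2 lay above all 5 without it in 2279 regions (4.59%) and below in 77 (0.155%), the smallest exact permutation p being 0.00794. The exact test called 0 regions after adjustment (smallest adjusted p = 0.167). Leaving out 1 more library moved the 775 widely: no region was called without E2 replicate 2, without E2 plus fulvestrant replicate 2 or without E2 plus fulvestrant replicate 3, 151 were called higher without E2 replicate 3, 389 without vehicle replicate 2, and 3200 without E2 plus fulvestrant replicate 1. With the replicate number as a block, limma called 0 regions in either direction (smallest adjusted p = 0.055; 7755 higher and 264 lower at an unadjusted p below 0.05). With the log2 rank scale, on which the median region did not shift, the split was 948 higher and 103 lower. Fulvestrant was not balanced over these 10 libraries, and with it as a term limma called 505 regions higher and 0 lower.

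The 775 differences ran from 6.40 to 92.7 percentile points with a median of 66.2, and 19 of them were no larger than the general shift of 9.23. Of the 775, 757 were also positive over 12 libraries, 588 of them at an unadjusted p below 0.05. The 12 include the libraries on which the 775 were chosen. These counts therefore follow largely from the choice and are not a separate check of it. The 2 left-out libraries took no part in this choice. E2 replicate 1 had a peak at 17.5% of the 775 and fulvestrant replicate 2 at 34.1%, against 35.8% and 53.0% of all tested regions. E2 replicate 1 was the higher of the pair at 81 of the 775, the lower at 215, and neither had a peak at 479. The left-out pair therefore did not show the difference by which the 775 were chosen, and over all tested regions E2 replicate 1 was also more often the lower, at 18153 against 9396.

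The 6 sites of smallest p in 10 libraries that were not among the 12 above included a full ERE. That was the site at chr3:136656327-136657384, 13.2 kb from Ppp3ca, which encodes the catalytic subunit of calcineurin. Its percentile was 99.1 and 99.2 with E2, and 98.8, 98.9 and 99.4 with E2 plus fulvestrant. With vehicle it was 88.1, 86.7 and 86.2, and with fulvestrant 86.4 and 86.7. The difference of 12.2 ± 1.54 (SE; limma adjusted p = 0.0173) was small in points but each of the 5 libraries with E2 placed the site at 98.8 or higher. Neither left-out library had a peak there.

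The other 5 of the 6 lay near Gfra2, Kif26b, Nat1, Sash1 and Galntl5. Gfra2, a GDNF family receptor gene, had the intronic site with the G1T element, at 98.99 and 99.2 with E2 and 90.5, 98.8 and 99.1 with E2 plus fulvestrant. It stood at 59.5, 76.3 and 59.3 with vehicle and at 59.8 and 64.3 with fulvestrant. The promoter site 148 bp from Galntl5 had a peak in all 5 libraries with E2, from 88.2 to 96.3, and in none of the 5 without; fulvestrant replicate 2 had one at 37.8 and E2 replicate 1 had none. E2 replicate 1 had no peak at any of these 6 sites.

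By presence in the 10 libraries, 54.3% of all tested regions had a peak more often with E2 and 10.7% less often. A peak in 5 of 5 with E2 and 0 of 5 without was found in 344 regions (0.693%), and 1 region (0.00201%) had the opposite. That 1 was the promoter site 1.28 kb from Gal3st4, a sulfotransferase gene, at 39.8, 12.6 and 70.6 with vehicle and 23.1 and 44.0 with fulvestrant. The 344 became 1216 without E2 plus fulvestrant replicate 1 and 630 without vehicle replicate 1. Of the 344, 71 held an ERE and 139 were among the 775. Fisher's exact test called 0 regions after adjustment, with 2346 more often and 14 less often with E2 at an unadjusted p below 0.05.

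The regions that rose in 10 libraries differed from the tested regions in sequence and position, none of which was used to choose them. The shares are given side by side without a test. The risen regions were also stronger peaks, with a median best percentile of 95.9 against 79.4, and had a peak in a median of 8 against 7 libraries. The shares were not compared at equal peak strength. An ERE with at most 1 mismatch lay within 100 bp of the summit in 201 of the 775 (25.9%) against 3.13% of all tested regions, and the same search 2 kb upstream gave 1.03% and 0.592%. A full ERE was present in 48 (6.19%) against 0.574%. Where an ERE was present, it lay a median of 20 bp from the summit in the risen regions and 26 bp in all tested regions. A single arm with a preceding A (AGGTCA, either strand) was found in 47.7% against 16.9%, which includes the EREs that contain it.

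AP-1 elements (TGANTCA) were found in 20.8% of the risen regions against 9.46% of those tested, with 8.39% and 6.11% in the search 2 kb upstream. Among the 574 risen regions with no ERE, 235 held the AGGTCA arm and 123 an AP-1 element, and 302 (52.6%) held at least 1 of these against 22.7% of tested regions without an ERE. The GC box (GGGCGG) went the other way, in 4.26% of risen regions against 13.9% of those tested, and the ETS element (CCGGAA) in 1.81% against 5.30%. FOX elements (TGTTTAC) were found in 3.23% against 2.49%, and RUNX elements (TGTGGT) in 17.7% against 13.3%, while 2 kb upstream RUNX gave 17.2% and 15.2%.

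By position, 13.8% of the risen regions were promoter regions (within 3 kb of a TSS) against 34.8% of those tested, and 44.3% were intergenic against 26.7%. The median distance to a protein-coding TSS was 55458 bp against 19177 bp. The GC content around the summit had a median of 46.3% against 50.2%. The 259 regions that were lower at an unadjusted p below 0.05 in 10 libraries had 71.8% promoter regions, a median GC content of 61.7%, and an ERE in 1 region (0.386%); these 259 did not pass the adjusted threshold, apart from the Kdm3a site.

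The share with an ERE was higher where the difference was larger in all bins above 0 but that from 10 to 20 points, which lay just below the 2.29% of the bin from 0 to 10. It was 0.712% of the 9829 regions with a difference from -10 to 0, 5.48% from 30 to 40, 9.04% from 40 to 50 and 17.5% of the 2031 regions at 50 or more. The same search 2 kb upstream stayed between 0.528% and 0.655% in each of the bins above 0. The AP-1 share climbed from 6.94% to 21.3% over the bins above 0, and the promoter share fell by bin from 39.9% to 12.2%.

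**Figure D2:**
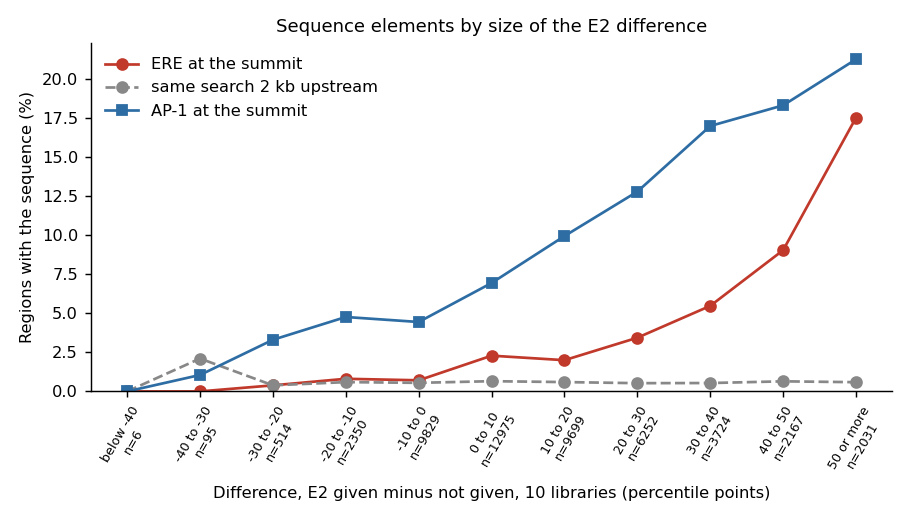
Share of tested regions (%, y axis) with an ERE of at most 1 mismatch or an AP-1 element within 100 bp of the summit, by the difference between libraries with and without E2 (10 libraries, percentile points, x axis, with the number of regions per bin). The ERE share reaches 17.5% in the highest bin while the search 2 kb upstream (dashed) stays near 0.6%.

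Regions were next grouped by sequence and position, and the mean percentile of each class was compared over libraries. The summit searched was that of the strongest peak over the 12 lists, which at sites high with E2 came from a library with E2. The filter also admitted regions with a peak only in libraries with E2, which enter as 0 without it. Of the 344 such regions in 10 libraries 71 held an ERE, and 1 region had the opposite. The class differences and their exact p-values carry both choices. The 285 regions with a full ERE had a mean percentile of 82.5 and 77.6 in E2 replicates 2 and 3, and 58.8, 74.8 and 77.8 with E2 plus fulvestrant. They had 46.8, 39.5 and 43.7 with vehicle, and 40.2 and 43.5 in fulvestrant replicates 1 and 3. E2 replicate 1 stood at 18.9, below every other library, and fulvestrant replicate 2 at 29.2. Over 12 libraries the difference was 24.6 points (65.1 ± 24.04 with E2 and 40.5 ± 6.15 without, SD, n = 6 each; exact permutation p = 0.0368, adjusted over 17 classes 0.187). Over 10 libraries it was 31.5 points (74.3 ± 9.11 and 42.8 ± 2.96, SD, n = 5 each), with no overlap between the groups and the smallest exact permutation p the design allows, 0.00794 (adjusted 0.0506).

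The 1268 regions with an ERE of 1 mismatch differed in the same direction, with 63.3 ± 10.0 with E2 and 32.9 ± 3.80 without (SD, n = 5 each), a difference of 30.4 points (exact permutation p = 0.00794, adjusted 0.0506). Because the mean of all tested regions also differed, by 12.5 points (exact permutation p = 0.0476, n = 5 each), the class means were also taken relative to that mean in each library, an alternative chosen after seeing the data. Without E2 plus fulvestrant replicate 1, 15 of the 17 classes passed on the percentile scale, against 0 with all 10. Relative to it, full-ERE regions stood 31.1 ± 4.97 points above the mean with E2 and 12.03 ± 3.18 above it without E2 (SD, n = 5 each; difference 19.0, exact permutation p = 0.00794, adjusted 0.0270). Regions with 1 mismatch stood 20.1 ± 4.02 and 2.213 ± 1.42 above it (difference 17.9, same exact p and adjusted p). In both left-out libraries the ERE classes lay below the mean of all tested regions, at -8.39 in E2 replicate 1 and -8.59 in fulvestrant replicate 2 for the full ERE.

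AP-1 regions without an ERE moved by 8.15 points relative to the mean (-0.790 ± 3.56 with E2 and -8.94 ± 0.783 without, SD, n = 5 each; exact permutation p = 0.00794, adjusted 0.0270), and regions with the AGGTCA arm but no ERE by 5.99 points (same exact p and adjusted p). These moves were not particular to the 2 elements, since 15 of the 17 classes passed on this scale. Among them were FOX, GRE-like, intronic and intergenic regions, each higher with E2 (exact permutation, adjusted p = 0.0270). Promoter regions moved the other way relative to the mean, from 15.4 ± 1.41 without E2 to 8.97 ± 3.76 with it (difference -6.41; exact permutation p = 0.0159, adjusted 0.0270). On the percentile scale itself the promoter difference was positive, 6.10 points, and did not pass (exact permutation p = 0.183, adjusted 0.194), so its direction depends on whether the general shift is taken out. Promoter, exonic, intronic and intergenic regions together make up all tested regions. A fall of promoter regions relative to the mean and a rise of the distal ones are therefore not separate results. The GC box and ETS classes changed sign in the same way, at -7.36 and -5.62 points relative to the mean (exact permutation adjusted p = 0.0360 and 0.0270) and 5.16 and 6.89 on the percentile scale. Over 12 libraries no class passed on either scale after adjustment (exact permutation, smallest adjusted p = 0.187 and 0.313), and 2 of the 17 classes had an exact p below 0.05 unadjusted on the percentile scale, the full ERE and the ERE with 1 mismatch.

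**Figure D3:**
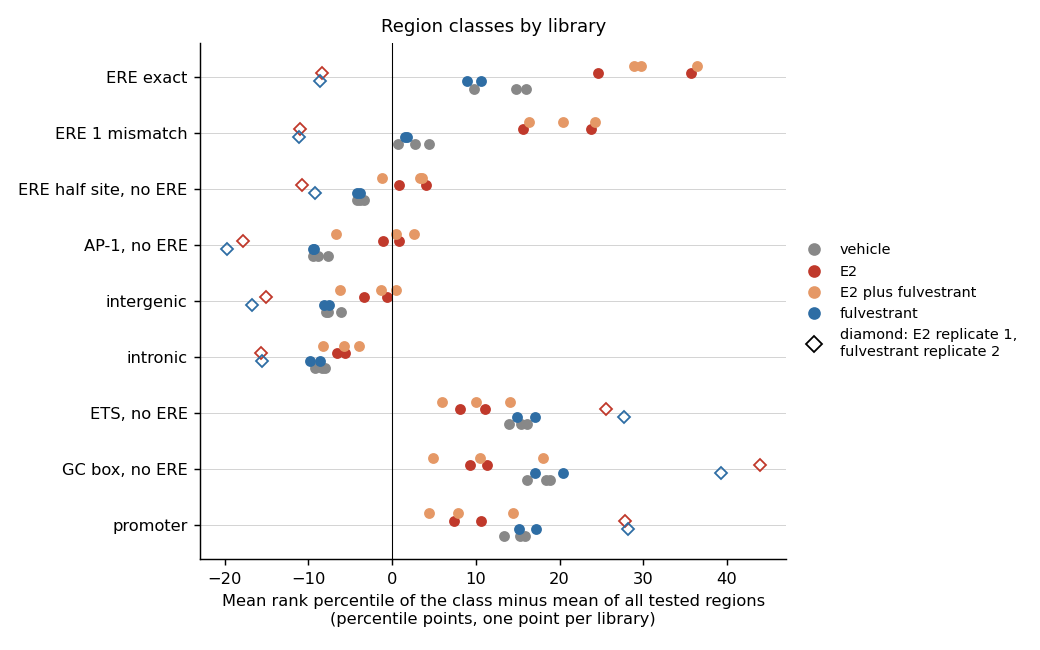
Mean rank percentile of each region class minus the mean of all tested regions in the same library (x axis, percentile points), 1 point per library; colours give the treatment and open diamonds E2 replicate 1 and fulvestrant replicate 2. In the ERE rows the 5 filled E2 points lie to the right of the 5 filled points without E2, in the promoter row mostly to the left, and the diamonds lie away from both.

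The difference could also be read separately without fulvestrant (E2 minus vehicle) and with it (E2 plus fulvestrant minus fulvestrant). These differences share no library, but their p-values came from the same fit and share a variance estimate over all the libraries. A region of low variance can therefore reach a small p in both, so the shares at p below 0.05 are not a separate check. In 10 libraries, with 2 against 3 and 3 against 2, limma called 404 regions higher in E2 minus vehicle. Of these 404, 331 (81.9%) were also positive in the presence of fulvestrant, against 60.8% of all tested regions. Their median there was 2.25 points, below the 3.61 of all tested regions, and 44 (10.9%) reached an unadjusted p below 0.05, against 5.47% of all. In the presence of fulvestrant limma called 20 regions higher and 2 lower. All 20 were positive in E2 minus vehicle, against 80.7% of all tested regions. Of the 20, 12 (60%) had an unadjusted limma p below 0.05 there, against 18.7% of all tested regions. Their median was 13.3 points there against 16.9 for all tested regions.

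The difference between these differences was tested as an interaction, and limma called 0 regions in 12 and in 10 libraries (smallest adjusted p = 0.748 and 0.412). At an unadjusted p below 0.05 in 10 libraries, the E2 difference was smaller with fulvestrant in 3241 regions and larger in 270, and its median over all tested regions was -10.9 points. For full-ERE regions the mean difference was 36.7 points without fulvestrant and 28.6 with it, and for promoter regions 14.3 and -0.557 points, against 20.1 and 6.68 for all tested regions. The general shift was thus also smaller with fulvestrant, and the interaction was not tested for each class. At the 18 named higher sites the difference was positive both without and with fulvestrant; these sites were chosen over both sets of libraries together. At the Ppp3ca site it was 12.1 and 12.5 points, at the Auh site 91.9 and 89.4, at the Cmklr1 site 17.9 and 28.8, and at the Dglucy site 64.3 and 30.9.

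**Figure D4:**
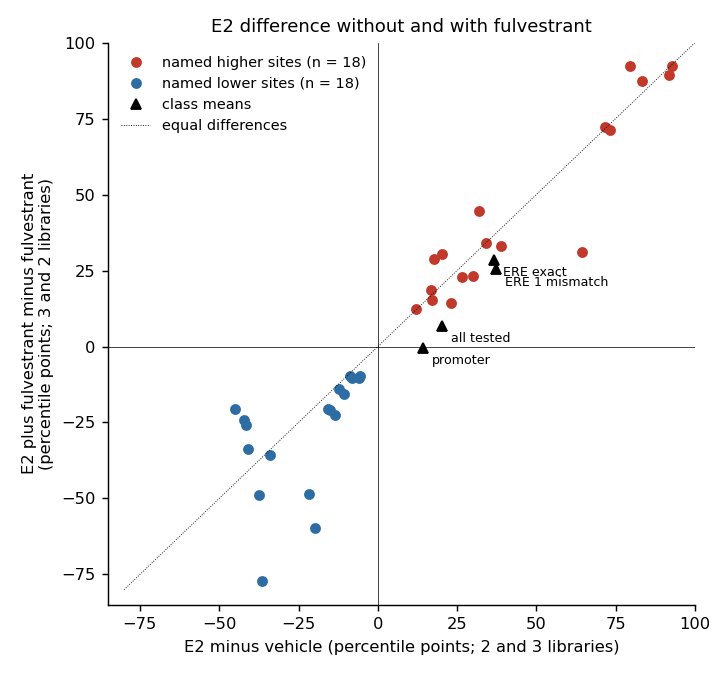
Difference with E2 in the absence of fulvestrant (x axis) and in its presence (y axis), in percentile points over 10 libraries, for the 18 named higher sites (red), the 18 named lower sites (blue) and the means of 4 region classes (triangles). The dotted line marks equal differences; the full-ERE class lies at 36.7 and 28.6 and the promoter class at 14.3 and -0.557.

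The 775 risen regions lay nearest to 674 of the 13707 genes with a tested region (4.92%), most with 1 region each; 82 genes had at least 2 and 13 at least 3. The most, 5 of 26 tested regions, lay nearest to Dut, the dUTPase gene, with differences of 16.8 to 40.6 points in 10 libraries, 2 of them with an ERE. Slco2a1, the prostaglandin transporter gene, had 3 of 7, all within 21.9 kb of its TSS, with differences of 67.9 to 88.4 and an ERE in 2. The strongest of these, with the C4G element above, stood at 99.1 and 98.0 with E2 and at 97.9, 98.6 and 98.0 with E2 plus fulvestrant. With vehicle it stood at 42.8, 0 and 0, and with fulvestrant at 0 and 6.90, all without the 2 left-out libraries, of which fulvestrant replicate 2 had a peak at 50.8 and E2 replicate 1 had none.

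Klf4, which encodes a zinc finger factor, had 3 of 25 regions, 70.8 to 478 kb from the TSS, and 2 held an ERE. Smoc2, which encodes a matricellular calcium-binding protein, had 3 of 13; at the strongest, the 5 libraries with E2 ran from 64.7 to 93.1 and no library without E2 had a peak. Irx1, a homeobox gene, had 4 of 21 and Kcnma1, a potassium channel gene, had 4 of 108, none with an ERE. Flrt2 had 4 of 30 and Auts2 4 of 39, with an ERE in 2 and in 1.

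Gene lists were read against the 1.56% of all tested regions that rose, without a test of the lists. Since only 1 tested region fell (0.00201%), falls could not be compared between lists. For estrogen targets known from other tissues, 4 of 163 regions rose (2.45%), nearest to Fos, Greb1 and Igf1, and the median difference was 20.04 points against 9.23 for all. The Greb1 site, an intronic one 3.32 kb from the TSS with a full ERE, stood at 98.9 and 95.2 with E2 and at 97.5, 98.4 and 98.9 with E2 plus fulvestrant. It stood at 90.4, 83.0 and 82.9 with vehicle and at 82.5 and 78.7 with fulvestrant (difference 14.3 ± 2.34, SE; limma adjusted p = 0.0185). Greb1 is an estrogen-induced coactivator of the receptor, and its site was high in the lists of all 10 libraries and absent from both left-out ones.

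Igf1, which encodes insulin-like growth factor 1, had a site 45.8 kb from its TSS at 96.0 and 91.8 with E2 and 70.6, 86.0 and 88.9 with E2 plus fulvestrant. It was at 46.6, 0 and 40.2 with vehicle and had no peak in any fulvestrant library (difference 69.3, limma adjusted p = 0.0332). At a noncoding gene's promoter 159 kb from the TSS of Pgr, the progesterone receptor gene, the difference of 56.7 points did not pass (limma adjusted p = 0.0609). In the IGF list 3 of 110 regions rose, nearest to Igf1, Igf1r and Igfbp3. The Igfbp3 site 135 kb from the TSS was at 97.5 and 86.2 with E2, at 53.7, 89.5 and 90.0 with E2 plus fulvestrant, and had 1 peak among the 5 libraries without E2, at 3.73.

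Of the genes the study names with E2, 3 of 268 regions rose (1.12%) against 1.56% of all tested regions. The median difference of the list was 12.2 points against 9.23. At an unadjusted limma p below 0.05 in 12 libraries 13.4% were higher, against 9.78% of all. The list was chosen on data that include these libraries. The study compared E2 with E2 plus fulvestrant, over RNA-Seq, ChIP-Seq and ATAC-seq. Those treatments stand on the same side here, so these shares are no check of its choice. The 3 risen regions lay nearest to Ncam1, Nrp2 and Wnt5a. At the Ncam1 site, 28.9 kb from the TSS of this cell adhesion gene and with a full ERE, the values were 99.6 and 99.2 with E2 and 98.3, 99.2 and 99.6 with E2 plus fulvestrant. They were 92.5, 87.6 and 92.3 with vehicle and 85.8 and 94.8 with fulvestrant. The difference of 8.59 ± 1.86 points (SE, limma adjusted p = 0.0385) was below the general shift of 9.23. The site already lay near the top of the scale without E2, so the percentile left it little room to rise. By rank in the list, where 1 is the strongest peak, it stood at 2374 to 6036 in the 5 libraries without E2. In the 5 with E2 it stood at 261 to 677. The intronic site 181 kb from Wnt5a, a Wnt ligand gene, had a peak in all 5 libraries with E2, from 47.7 to 81.6, and in no library without it. Ltbp1, a latent TGF-beta binding protein gene, had a site with a difference of 52.8 that did not pass (limma adjusted p = 0.0557).

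Among collagens and matrix genes, 10 of 419 regions rose (2.39%), nearest to 9 of the 25 genes, with a median difference of 10.6 points. Besides Col6a2 these were Col4a2, Col5a1, Col6a1, Dcn, Fbn1, Loxl2, Thbs1 and Vcan. The Col6a1 site had a peak in all 5 libraries with E2, at 92.6 and 70.0 and at 62.4, 89.5 and 62.0 with fulvestrant added, and in no library without E2. Near Dcn, the gene of the small proteoglycan decorin, a site 52.6 kb away moved within the top of the lists, from 70.6 to 89.3 without E2 to 93.8 to 99.5 with it. E2 replicate 1 had no peak at the Dcn and Col6a1 sites.

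In the TGF-beta list 4 of 262 regions rose (1.53%), nearest to Ltbp2, Ltbp4, Tgfb2 and Tgfbr2, a share like that of all tested regions. In the Wnt list it was 6 of 260 (2.31%), nearest to Dkk2, Dkk3, Fzd4, Sfrp2, Tcf7l2 and Wnt5a. Steroid and related receptors had 5 of 117 (4.27%), nearest to Esrrg, Nr3c1, Rxra and Thrb. The Rxra site, 69.1 kb from the gene of the retinoid X receptor alpha, was at 98.96 and 92.9 with E2 and 89.9, 98.998 and 95.3 with E2 plus fulvestrant, at 39.3, 8.82 and 0 with vehicle and at 0 in fulvestrant replicates 1 and 3. E2 replicate 1 had this site too, at 81.3, as did fulvestrant replicate 2, at 85.1. Nr3c1, the glucocorticoid receptor gene, had a site 129 kb away at 88.3 to 94.0 in the 5 libraries with E2 and at 60.6 in 1 of the 5 without.

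AP-1 genes had 2 of 66 regions (3.03%), nearest to Fos and Jun. Coregulators and pioneer factors had 1 of 194 (0.515%), nearest to Tle3, and cell cycle genes 1 of 139 (0.719%), nearest to Cdc7. Near fibroblast markers 2 of 102 rose (1.96%), nearest to Tcf21 and Twist2. The Twist2 site, with an ERE of 1 mismatch, had a peak in all 6 libraries with E2, from 69.5 through a median of 86.8 to 90.3, and ran from 0 through 12.8 to 55.3 without it. Near myogenic, endothelial and immune markers 0 of 2, 0 of 37 and 0 of 12 regions rose (limma). At an unadjusted p below 0.05 in 12 libraries 0 of 2, 7 of 37 (18.9%) and 3 of 12 regions were higher, against 9.78% of all tested regions and 11.8% of those near fibroblast markers. Their median differences in 10 libraries were 11.4, 19.1 and 16.4 points, against 10.6 near fibroblast markers and 9.23 for all tested regions.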

How the data were processed

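ESR1 ChIP-Seq peak lists of 12 libraries were used. Per the labels and the study's methods, the authors used Trimmomatic 0.39 for trimming, Bowtie2 for alignment (mm10), Picard 2.21.4 to take out duplicates, and MACS2 2.2.71 for peak calling, 1 library at a time. The deposited lists give a fold enrichment (a ratio over local background), the −log10 p-value and the −log10 q-value of each summit. The methods describe a filter on blacklisted peaks; whether the deposited lists precede it, and whether an input control entered the calls, was not given in the sources used here. The lists hold no read counts, so depth is known only relative to the other libraries, and a count model could not be used.

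Peaks overlapping by at least 1 bp were merged. Regions with a peak in at least 3 libraries were tested on the rank percentile by −log10 q with limma 3.58.1 (R 4.3.3; eBayes with trend, Benjamini-Hochberg over all tested regions, threshold 0.05). Ties shared a mean rank. The exact permutation tests, all two-sided, and Fisher's exact test used scipy 1.17.1. Motifs were searched on both strands within 100 bp of the summit of the region's strongest peak (201 bases), and in windows of the same length 2 kb upstream. Genes came from GENCODE vM21 (GRCm38) and promoter regions lay within 3 kb of any annotated TSS. Other motifs searched for the 17 classes were TGACGTCA (CRE), GGAATG (TEAD), CCAAT, ACANNNTGT (GRE-like) and the palindromic NF1 element. Sequences were read from the RefSeq copy of GRCm38.

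Named were the 12 regions of smallest p in each direction in 12 libraries, the next 6 in 10 libraries, the 10 genes with most risen regions and up to 4 members per gene list. The comparison, the 2 libraries left out of its repeat, the classes and the lists were chosen with earlier results of these data known. Alternatives were other peak thresholds, summit windows, filters, scales, a fulvestrant term, a replicate block and leaving out each library. The capped log2 rank and the centring of the classes were chosen after seeing the data.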

Additional observations from a re-analysis of the deposited data

Results flagged for a closer look

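Values were looked at for a library lying far from the others of its group, which chance alone gives in about 1 in 20 groups. Among measures of whole libraries 11 of 92 groups had one. E2 replicate 1 stood apart in the mean percentile of full-ERE regions (18.9), in that mean relative to all tested regions (-8.39), in the same for 1-mismatch EREs (-11.0), in relative depth (39.1%) and in the share of peaks in repeats (59.4%). Fulvestrant replicate 2 stood apart in both relative ERE means (-8.59 and -11.1), in its number of peaks (80754), in relative depth (75.8%) and in the share in repeats (27.9%). Over 10 libraries, E2 plus fulvestrant replicate 3 stood apart in relative depth (92.0%).

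Among 74 named regions, 69 of 148 groups had such a library. E2 replicate 1 was the one in 38 of the 69, with no peak (0) in 31, and fulvestrant replicate 2 in 13, with no peak in 9. A lone peak among libraries at 0 always meets this rule, and regions named for 10 libraries were chosen without these 2, so the counts are not those of regions picked at random.

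With a value other than 0, E2 replicate 1 stood at 1.24 near Traf3, 53.0 near Kdm3a, 22.5 near Mpst, 31.7 near Klf4, 53.0 near Ncam1, 8.63 near Col5a1 and 61.4 near Jun. Fulvestrant replicate 2 stood at 88.4 near Il17ra, 37.8 near Galntl5, 24.7 near Nrp2 and 77.9 near Tcf7l2. E2 plus fulvestrant replicate 1 stood at 85.7 near D7Ertd443e, 94.5 near Col6a2, 18.002 near Gstt1 and 72.8 near Nrp2. Near Il6 it was E2 replicate 3 (5.88), and near Nemp1 E2 replicate 2 (31.8) and fulvestrant replicate 1 (0). Fulvestrant replicate 1 stood at 24.6 near Kcnma1 and 77.8 near Tcf21, and fulvestrant replicate 3 at 20.2 near Eif3h, 78.8 near Klf4, 60.6 near Nr3c1 and 44.0 near Tgfb2. Vehicle replicate 3 stood at 27.7 near Irx1, 45.0 near Thrb and 56.9 near Dkk3, and vehicle replicate 1 at 53.7 near Ltbp4 and 3.73 near Igfbp3.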

How the results depend on the processing

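Regions higher with E2 over 12 libraries numbered 0, with 3 at −log10 q of at least 10, 1 on the capped log2 rank and 0 to 855 when 1 library was left out (855 without E2 replicate 1), and regions lower numbered 0 in each of these. Over 10 libraries the 775 higher became 279 with summit windows, 1645 with a peak required in 6 libraries, 423 with no filter, 505 with fulvestrant as a term, 0 with the exact permutation test (8933 at an unadjusted limma p below 0.05) and 0 to 3200 when 1 library was left out. The 1 lower became 0 at q of at most 0.05, 0 at −log10 q of at least 10, 16 with summit windows, 3 with a peak in 6 libraries, 103 on the capped log2 rank, 2 as a percentile among tested regions, 0 with the fulvestrant term or the exact test and 0 to 5 when 1 library was left out (5 without E2 plus fulvestrant replicate 1). With the replicate number as a replicate block the calls were 0 over 12 libraries and 0 higher and 0 lower over 10, and the class differences over 12 libraries were 24.6 for the full ERE and 23.6 for 1 mismatch with 0 classes past the threshold. The numbers were not shown to pair the samples: the correlations of same-numbered libraries outside the left-out pair ran from -0.0456 to 0.316 with a median of 0.0667. Those of differently numbered libraries ran from -0.220 to 0.302 with a median of -0.00190. The median was thus higher for the same number, but the ranges overlapped widely. Regions present in all with E2 and none without numbered 9 over 12 libraries (14 at −log10 q of at least 10, 1061 with 1 exception, 9 to 283 with 1 library left out) and 344 over 10 (4073 with 1 exception, 398 to 1216 with 1 left out). The opposite numbered 0 over 12 (25 with summit windows, 24 with 1 exception, 0 to 2 with 1 left out) and 1 over 10 (0 at q of at most 0.05, 0 at −log10 q of at least 10, 60 with summit windows, 70 with 1 exception, 1 to 5 with 1 left out). The full-ERE difference ran from 21.1 to 33.8 over 12 libraries and from 29.5 to 35.4 over 10 when 1 library was left out, and the 1-mismatch difference from 20.6 to 31.4 and from 28.6 to 34.7. Over 10 libraries these 2 classes passed on the capped log2 rank (1.502 and 1.16) and relative to the mean of all tested regions (19.0 and 17.9). Classes past the threshold over 12 libraries numbered 0 to 11 with 1 library left out (11 without E2 replicate 1). Over 10 they numbered 0, 14 on the capped log2 rank, 15 relative to the mean and 0 to 15 with 1 library left out (15 without E2 plus fulvestrant replicate 1). Reversed over 10 libraries were ETS (-0.20 on the log2 rank and -5.62 relative to the mean), GC box (-0.25 and -7.36), promoter (-0.20 and -6.41), and, relative to the mean alone, CRE (-2.17) and exonic (-4.17). Among 88 named regions 0 reversed, and over 10 libraries 383 of the region-by-setting values fell below the threshold, 39 rose past it and 895 kept their side. Except where a setting itself leaves fewer regions or libraries, the cause was not tested. Without read counts in the lists, a region at 0 is one with no called peak, not one without binding, and the smallest exact p is 0.00216 with 12 libraries and 0.00794 with 10.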
